A study of Mus musculus with 6 samples.

Results

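Mast cells are granule-filled immune cells that arise from blood progenitors and settle in connective tissue, where they sit near vessels and under capsules. Their granules hold histamine, serglycin proteoglycans and large amounts of a few proteases. They are armed by IgE bound to the high-affinity receptor Fc epsilon RI, and their survival depends on the receptor tyrosine kinase KIT and its ligand, stem cell factor. The present account concerns 10 genes that mark these cells: the granule proteases Cpa3, Cma1, Mcpt4, Tpsb2 and Tpsab1, the receptor genes Kit, Ms4a2 and Fcer1a, the histamine-forming enzyme Hdc and the transcription factor Gata2. They were chosen by their place in mast cell biology with the KO and WT signals of these same arrays, above all the low Cpa3 signal on the KO arrays, already known. Their differences between genotypes are therefore a description, with no test. Of the 10 genes, 9 had a probe named through RefSeq accessions, among 20655 named genes on the array, and Tpsab1 was not analysed here.

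The study measured kidney RNA of newborn mice carrying a knockout of Usp10, which encodes a ubiquitin-specific protease, and of wild-type newborns. The groups were USP10 KO (3 arrays) and USP10 WT (3 arrays), each array from a separate neonate taken about 6 hours after birth and all labelled male, and the labels name no strain or allele design. The RNA carried the dye Cy3 and was read on single-colour Agilent arrays. Values are log2 of the background-subtracted intensity minus the array's own 75th percentile, so 0 is the brightness at that percentile. A probe is called well above background when the scanner software's flag says so on that array, which is the background call.

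Several checks bear on every value. Usp10 was brighter on the arrays labelled KO, at 3.64, 3.37 and 3.56, against 3.01, 3.13 and 2.95 on the arrays labelled WT, a difference of 0.49 (SE 0.16) with an adjusted p of 0.416 in limma. The labels do not give the deleted stretch, and the place of the Usp10 probe in it was not known, so the probe does not check the genotype. Genotypes are therefore named as labelled, and every direction below rests on these labels. Xist, the RNA of the inactive X chromosome, passed the background call on 2 arrays, WT replicates 1 (-0.62) and 2 (0.43). The Y-linked Ddx3y, Eif2s3y and Uty passed it everywhere except on WT replicate 2. The Xist signals go against the male label of both arrays. Differences against WT replicate 3 alone are added below for the 5 members that entered the fit, and not for the dimmer members. The file headers give 2 scan times: KO replicates 1 and 2 and WT replicates 2 and 3 shared scan 1, and KO replicate 3 and WT replicate 1 shared scan 2. Between 64.4% and 72.8% of spots were well above background on the KO arrays and between 66.5% and 73.9% on the WT arrays, and the kidney markers Umod, Slc12a1, Slc34a1, Lrp2, Aqp2 and Six2 were so on all 6 arrays.

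The promoters of the members are shown first because Gata2, itself a member, encodes a factor that binds GATA sequences in blood and mast cell genes. The windows run from 250 bases before to 50 bases after the annotated start (RefSeq, GRCm38.p6), and those of Cpa3, Ms4a2 and Hdc are printed because the array values of these 3 genes did not overlap between genotypes. Capitals mark a match on either strand to the GATA motif, either in the forms AGATAA and AGATAG or in the forms TGATAA and TGATAG, and no matches overlap. Cpa3 lies at chr3:20242132-20242431, Ms4a2 at chr19:11623670-11623969 and Hdc at chr2:126618629-126618928, all on the minus strand, and each is written 5′ to 3′ in the sense of its gene.
Cpa3: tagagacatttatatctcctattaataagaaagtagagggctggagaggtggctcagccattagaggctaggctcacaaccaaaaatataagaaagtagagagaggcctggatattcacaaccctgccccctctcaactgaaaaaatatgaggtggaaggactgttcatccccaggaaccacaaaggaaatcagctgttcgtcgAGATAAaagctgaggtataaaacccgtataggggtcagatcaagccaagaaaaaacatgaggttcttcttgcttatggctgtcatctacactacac
Ms4a2: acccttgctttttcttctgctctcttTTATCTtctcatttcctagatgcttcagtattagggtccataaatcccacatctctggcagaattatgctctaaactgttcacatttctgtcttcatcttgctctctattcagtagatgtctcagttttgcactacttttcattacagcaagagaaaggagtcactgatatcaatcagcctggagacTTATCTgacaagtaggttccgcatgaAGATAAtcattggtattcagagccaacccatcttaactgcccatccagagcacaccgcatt
Hdc: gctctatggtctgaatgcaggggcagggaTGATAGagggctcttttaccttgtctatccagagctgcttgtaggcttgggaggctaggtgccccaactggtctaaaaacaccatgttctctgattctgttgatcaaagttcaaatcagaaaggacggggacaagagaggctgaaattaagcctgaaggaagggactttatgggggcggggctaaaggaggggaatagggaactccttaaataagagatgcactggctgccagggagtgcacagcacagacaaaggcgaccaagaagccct

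Cpa3 held 1 match, starting at position -46 from the start site. Ms4a2 held 3, at positions -224, -37 and -11, and Hdc held 1, at position -221. Of the other members with a promoter entry, Mcpt4 had a match at position -103, Cma1 at position -79 and Fcer1a at position -92, while none was found in the windows of Kit and Gata2. In all, 6 of 10 promoter entries of 8 member genes held a match, against 29.8% of the 32851 promoters in the table, and 7.77% of all promoters held 2 or more. A match of 6 letters describes the sequence and does not show a binding site.

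Detection divided the 9 measured genes. Tpsb2, Kit, Hdc and Gata2 were well above background on all 6 arrays. Cpa3 was so on no KO array and on all 3 WT arrays, and Mcpt4 only on KO replicate 2 and WT replicate 3. Cma1, Ms4a2 and Fcer1a passed the background call on no array. The chymases and the chains of the IgE receptor that are particular to mast cells and basophils were thus at or near the limit of detection. Of the genes detected throughout, 3 are also known from other cells: Hdc from kidney epithelium in mice, Gata2 from endothelium and collecting duct, and Kit from blood progenitors and melanocytes. In bulk tissue, fewer cells of a type and less RNA per cell cannot be told apart.

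Of the 9 genes, 6 were lower on average on the KO arrays and 3 were higher. Cpa3 was the 1 member past the limma threshold, against 0.0802% of 21207 genes called in either direction and 0.0613% called lower, and nothing is read from that count because the contrast was known when the genes were listed. Of the 5 members in the fit, 2 (Cpa3 and Hdc) did not overlap between genotypes, against 18.2% of the genes tested in either direction and 8.1% lower, and nothing is read from this count either. Ms4a2 did not overlap but was too dim to enter. Only 5 of the 9 passed the filter on dim probes, which asks for all arrays of at least 1 group.

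**Figure D1:**
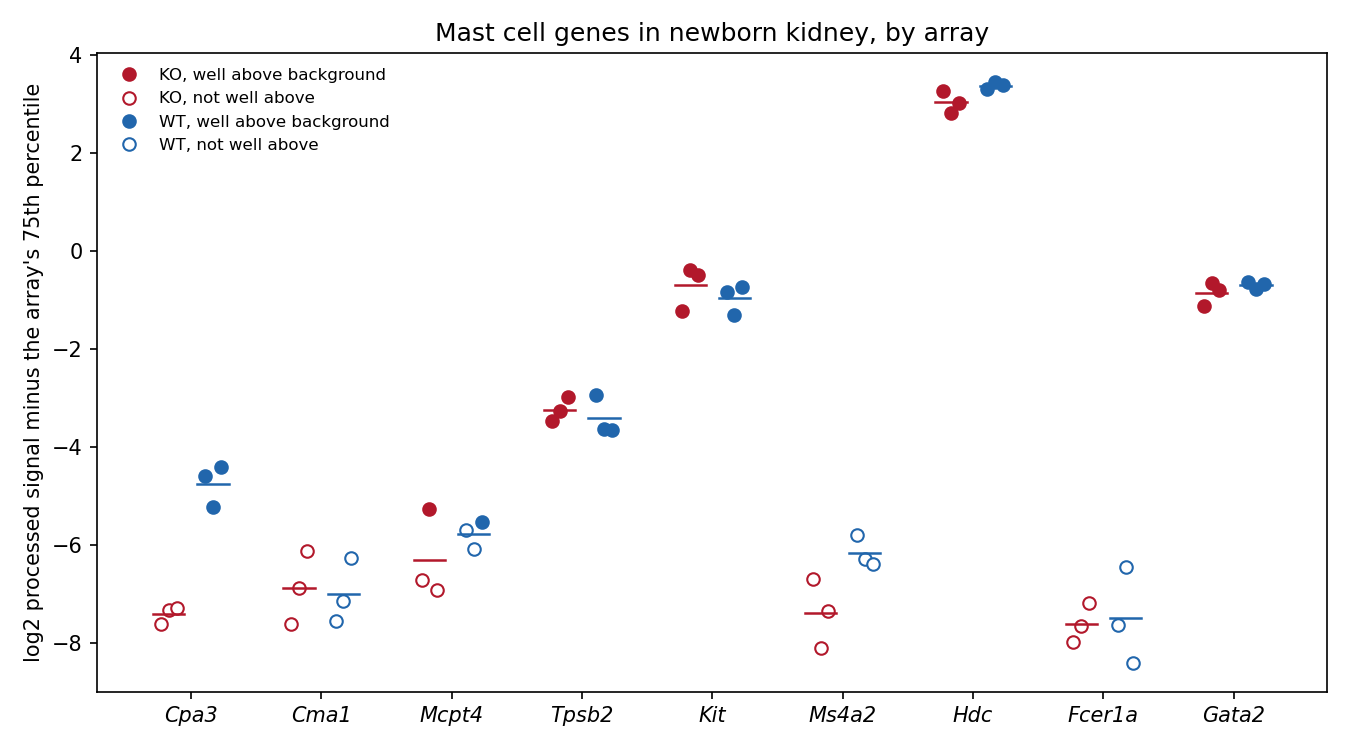
Log2 processed signal minus the array's 75th percentile (vertical axis) for the 9 measured mast cell genes, with KO arrays left of WT arrays for each gene. Filled points are well above background, open points are not, and bars are group means of 3 arrays. Cpa3 is open on all KO arrays and filled on all WT arrays, while Cma1, Ms4a2 and Fcer1a are open throughout.

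Cpa3 encodes carboxypeptidase A3, a metalloprotease stored in mast cell granules that trims peptides and venom toxins. Its probe (A_51_P214127, chromosome 3) gave -7.62, -7.34 and -7.30 on the KO arrays, against -4.61, -5.24 and -4.43 on the WT arrays. Every KO array lay below every WT array, and all 3 KO values failed the background call, so their distance from the WT values is not measured. Cpa3 averaged -7.42 ± 0.17 on the KO arrays and -4.76 ± 0.43 on the WT arrays (SD, n = 3 each), a difference of -2.66 (SE 0.24). Because the probe was not well above background on any KO array, its KO level there is known only to be dim. A nominal bound puts Cpa3 1.75-fold lower on the KO arrays. That bound sets the mean over the KO arrays of the dimmest signal passing the background call against the WT mean. It is not strict, because that signal is no ceiling for probes failing the call. On KO replicate 3 that signal lay at -5.07, while Ctsg failed the call at -5.00. Cpa3 on WT replicate 2, at -5.24, lay below it. The pattern of no KO array and all WT arrays well above background was shared by 0.25% of all genes tested, and the opposite pattern by 0.066%. Nothing is read from these shares, since the detection of Cpa3 was known when the genes were listed.

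Within scan 1 the Cpa3 difference was -2.65, within scan 2 it was -2.70, and against WT replicate 3 alone it was -2.99. Each of these rests on KO values below the background call, so their sizes are not measured folds. On the linear scale the processed intensity of Cpa3 was 2.40, 1.89 and 2.07 on the KO arrays, against 20.3, 13.0 and 26.9 on the WT arrays. These are low numbers on a scale where the 75th percentile of an array lay at 472, 306 and 326 on the KO arrays and at 493, 488 and 579 on the WT arrays. All KO arrays therefore had a lower 75th percentile than all WT arrays.

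The pixel values before background subtraction were closer together. The Cpa3 spot had a median pixel intensity of 28, 25 and 39 on the KO arrays, against 60, 37 and 51 on the WT arrays. KO replicate 3 thus exceeded WT replicate 2, so the raw values overlapped. The median of the 153 negative control spots was 22, 23 and 37 on the KO arrays and 38, 23 and 23 on the WT arrays, higher on the 2 arrays of scan 2. Cpa3 exceeded 146, 147 and 53 of the 153 negative control spots on the KO arrays, against all 153 on each WT array.

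**Figure D2:**
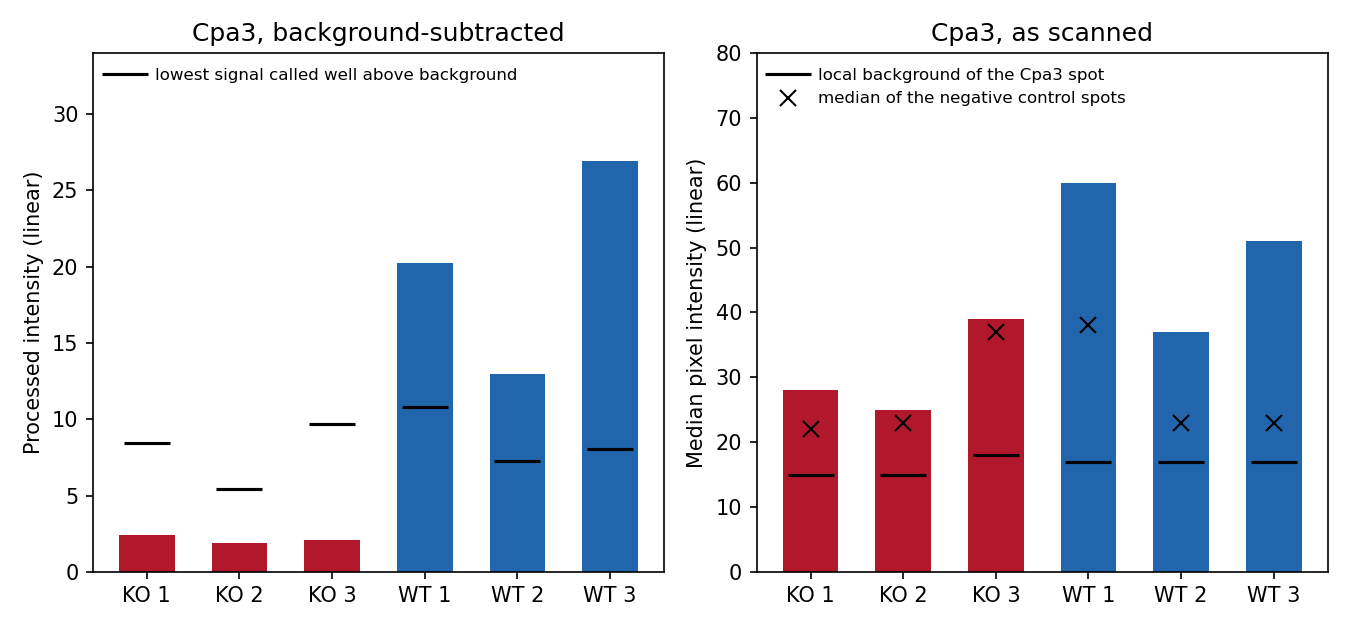
Cpa3 intensity on a linear scale for the 3 KO and 3 WT arrays. Left, processed intensity with the dimmest signal that passes the background call on that array (line): the KO bars lie below it and the WT bars above. Right, median pixel intensity before subtraction with local background (line) and the median of 153 negative control spots (cross): KO replicate 3 at 39 stands above WT replicate 2 at 37.

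The size of the Cpa3 difference depended on how background was handled. With normexp background correction, which adds an offset of 50 to every signal, and the 75th percentile, Cpa3 differed by 0.07, while the median of all genes moved to 0.14. With normexp and quantile normalization Cpa3 differed by -0.32, and neither setting called it. Among 17 alternatives, 16 tested Cpa3 and 6 called it, and leaving out KO replicate 1, KO replicate 2, WT replicate 1, WT replicate 2 or WT replicate 3 each ended the call with differences between -2.90 and -2.50. The call was also lost against WT replicate 3 alone, with the replicate number as a block and when all dim probes were kept. A stricter filter left Cpa3 out.

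**Figure D3:**
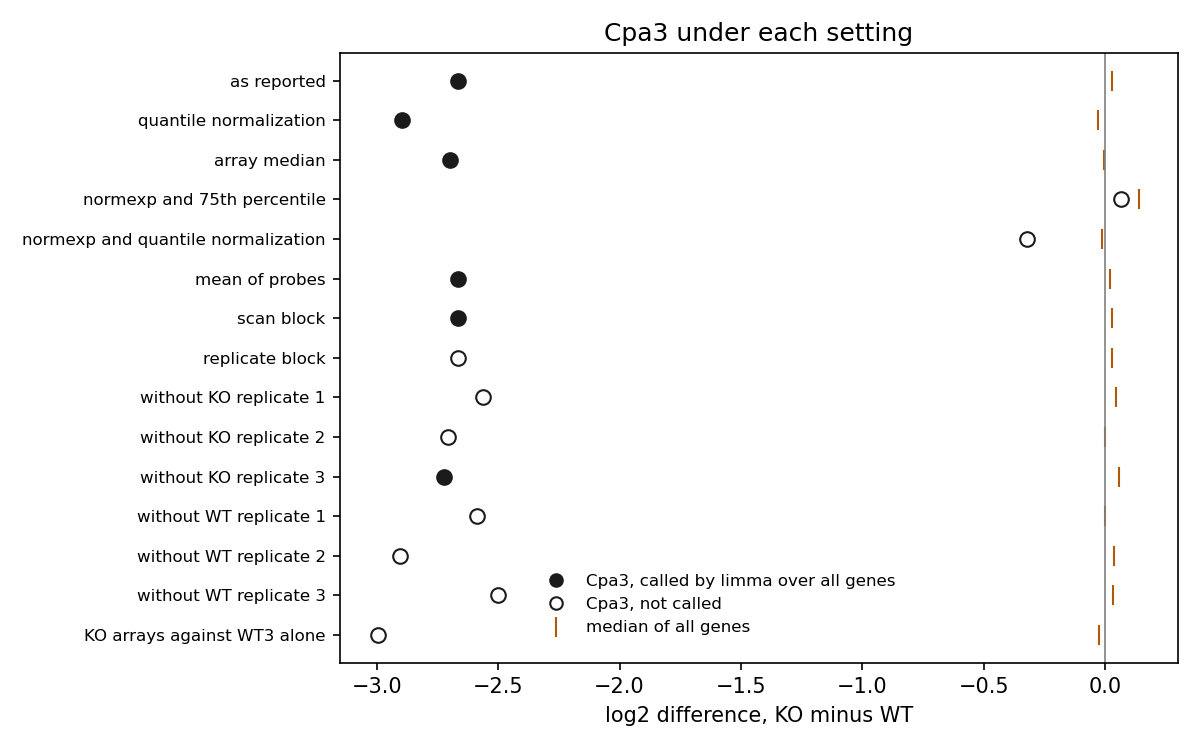
Log2 difference of Cpa3, KO minus WT (horizontal axis), under 15 settings (rows). Filled points were called by limma over all genes, open points were not, and ticks give the median of all genes. The points lie between -2.99 and -2.50 except for both normexp settings, at 0.07 and -0.32.

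The chymases did not divide by genotype. Mcpt4 encodes a chymase of connective tissue mast cells, and its probe (chromosome 14) gave -6.72, -5.28 and -6.93 on the KO arrays, against -5.71, -6.10 and -5.53 on the WT arrays. KO replicate 2 was the highest of the 6 arrays, so the genotypes overlapped. Cma1, another chymase stored with carboxypeptidase A3 in mouse mast cells (chromosome 14), gave -7.62, -6.90 and -6.13 on the KO arrays, against -7.56, -7.15 and -6.28 on the WT arrays. Its values spread as widely within each genotype as between them, all below the background call, so no fold is given.

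Tryptases are serine proteases held in the granule as tetramers on heparin. Tpsb2 (chromosome 17) gave -3.48, -3.27 and -2.99 on the KO arrays, against -2.94, -3.65 and -3.66 on the WT arrays. The genotypes overlapped, with WT replicate 1 the highest and both other WT arrays the lowest. Tpsb2 averaged -3.25 ± 0.25 on the KO arrays and -3.42 ± 0.41 on the WT arrays (SD, n = 3 each), a difference of 0.17 (SE 0.25). It was 0.28 in scan 1 and -0.05 in scan 2, so its sign differed between scans. Against WT replicate 3 alone the Tpsb2 difference was 0.42. A second Tpsb2 probe was not well above background on any array, and tryptase genes are close copies of each other, so how far either probe separates them is uncertain. On the KO arrays, the granule protease Cpa3 was thus not above background while the tryptase Tpsb2 was, and both were detected on all WT arrays.

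The IgE receptor is made of an alpha chain that binds the antibody (Fcer1a), a beta chain that amplifies the signal (Ms4a2) and a gamma chain shared with other receptors (Fcer1g). Ms4a2 (chromosome 19) gave -6.71, -8.12 and -7.35 on the KO arrays, against -5.81, -6.29 and -6.40 on the WT arrays. Every KO array lay below every WT array, but none was well above background, and the order of values at that level carries no measured fold. Fcer1a (chromosome 1) gave -8.00, -7.66 and -7.20 on the KO arrays, against -7.63, -6.45 and -8.41 on the WT arrays. WT arrays were both the highest and the lowest. Fcer1g, which macrophages also use and which is not among the 10 genes, was well above background on all arrays and differed by -0.24 (SE 0.17, limma adjusted p 0.605).

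Kit encodes the receptor for stem cell factor. Its probe (chromosome 5) gave -1.23, -0.40 and -0.49 on the KO arrays, against -0.84, -1.31 and -0.75 on the WT arrays. KO replicate 1 and WT replicate 2 were low and the other 4 arrays were higher, so the genotypes overlapped, and Kit differed by 0.26 (SE 0.27). Against WT replicate 3 alone Kit differed by 0.04. Its ligand gene Kitl gave 0.00, 0.08 and 0.11 on the KO arrays, against -0.12, -0.23 and -0.33 on the WT arrays. All KO arrays of Kitl lay above all WT arrays, yet the difference of 0.29 (SE 0.15) had an adjusted p of 0.527 in limma and did not pass.

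Hdc encodes histidine decarboxylase, which makes histamine. Its probe (chromosome 2) gave 3.27, 2.80 and 3.02 on the KO arrays, against 3.30, 3.44 and 3.37 on the WT arrays. The genotypes did not overlap, although KO replicate 1 was close to the lowest WT array and KO replicate 2 was the lowest of all. Hdc averaged 3.03 ± 0.23 on the KO arrays and 3.37 ± 0.07 on the WT arrays (SD, n = 3 each), a difference of -0.34 (SE 0.18). The difference was -0.37 in scan 1, -0.28 in scan 2 and -0.34 against WT replicate 3 alone. The processed intensity of Hdc was 4542, 2134 and 2649 on the KO arrays and 4848, 5309 and 5995 on the WT arrays, far from background.

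Gata2 encodes a zinc finger factor needed for mast cell development. Its probe (chromosome 6) gave -1.12, -0.67 and -0.80 on the KO arrays, against -0.64, -0.78 and -0.68 on the WT arrays. The genotypes overlapped, with KO replicate 1 the lowest, and Gata2 differed by -0.17 (SE 0.18). Against WT replicate 3 alone Gata2 differed by -0.19.

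Beyond the 10 genes, 41 other genes of mast cells were followed in 3 lists, of which 40 had a probe, 26 entered the fit and 23 were well above background on all 6 arrays. None of the 26 was called in limma, against 0.0802% of all genes, the lowest adjusted p being 0.308. At an unadjusted p under 0.05, 4 were lower and 3 higher, 7 of 26, against 10.4% of all genes in either direction, 4.23% lower and 6.15% higher. On average 16 of the 26 were lower and 10 higher on the KO arrays, with a median difference of -0.16, beside 9913 of 21207 genes lower (46.7%) and a median of 0.03 over all genes. Lists of other cells leaned either way. Of the endothelial genes 5 of 6 were lower, with a median of -0.27, and of the kidney list 6 of 8, with a median of -0.26. Blood progenitor genes were higher in 5 of 6 cases, with a median of 0.20, and eosinophil genes in 3 of 3 tested, with a median of 0.69. The 26 genes include many that other blood cells or kidney cells also express. Ctsg, Tph1 and Il1rl1, all lower on the KO arrays, passed the filter only through the WT arrays. The filter thus tilts the counts of lower genes here and in the granule and receptor lists below. The eosinophil genes Epx and Ccr3 passed the filter only through the KO arrays, which tilts the eosinophil count toward higher genes.

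Granule and lipid mediator genes had 7 of 10 tested members lower and 3 higher, with a median of -0.31. Tph1, which starts serotonin synthesis, differed by -1.42 (SE 0.41, limma adjusted p 0.381) and was well above background on 1 KO array and on all 3 WT arrays. Hpgds, the prostaglandin D2 synthase of mast cells and other blood cells, differed by -0.44 (SE 0.19, limma adjusted p 0.477). The serglycin gene Srgn, the core protein of the granule proteoglycan, differed by -0.23 (SE 0.16). Slc18a2, the carrier that loads histamine into vesicles, differed by -0.20 (SE 0.18). The protease genes Mcpt1, Mcpt9, Gzmb and Tpsg1 did not pass the background call anywhere.

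Surface receptor genes had 6 of 7 tested members lower and 1 higher, with a median of -0.17. Il1rl1, the receptor for interleukin-33, gave -5.86, -5.50 and -6.03 on the KO arrays, against -5.21, -4.59 and -5.08 on the WT arrays. Its groups did not overlap, and its difference of -0.83 (SE 0.23) had a limma adjusted p of 0.365, with 1 KO array and all 3 WT arrays well above background. Mrgprb2, the receptor through which mouse connective tissue mast cells answer basic peptides, and its relative Mrgprb1 never passed the background call. Enpp3, also known from epithelia, differed by 0.70 (SE 0.30, limma adjusted p 0.481).

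Regulator genes had 3 of 9 tested members lower and 6 higher, with a median of 0.41. Myb, a factor of blood progenitors, differed by 0.63 (SE 0.16), Runx1 by 0.52 (SE 0.19) and the GATA partner Zfpm1 by 0.45 (SE 0.19), with limma adjusted p values of 0.322, 0.446 and 0.474. Lyl1, a factor of blood and endothelial cells, differed by -0.76 (SE 0.18, limma adjusted p 0.308). Mitf, the factor that mast cells share with melanocytes, differed by 0.74 (SE 0.38, limma adjusted p 0.519) and overlapped between genotypes. Spi1 was not well above background on any array.

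Genes of the signalling chain below the IgE receptor and KIT had 7 of 17 tested members lower and 10 higher, with a median of 0.06, and none was called. The kinase gene Syk differed by -0.17 (SE 0.18) and Lyn by -0.04 (SE 0.18). The adaptor gene Lat2 differed by 0.45 (SE 0.17, limma adjusted p 0.459), and Stim1, the calcium sensor of the endoplasmic reticulum, by 0.82 (SE 0.25, limma adjusted p 0.402).

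**Figure D4:**
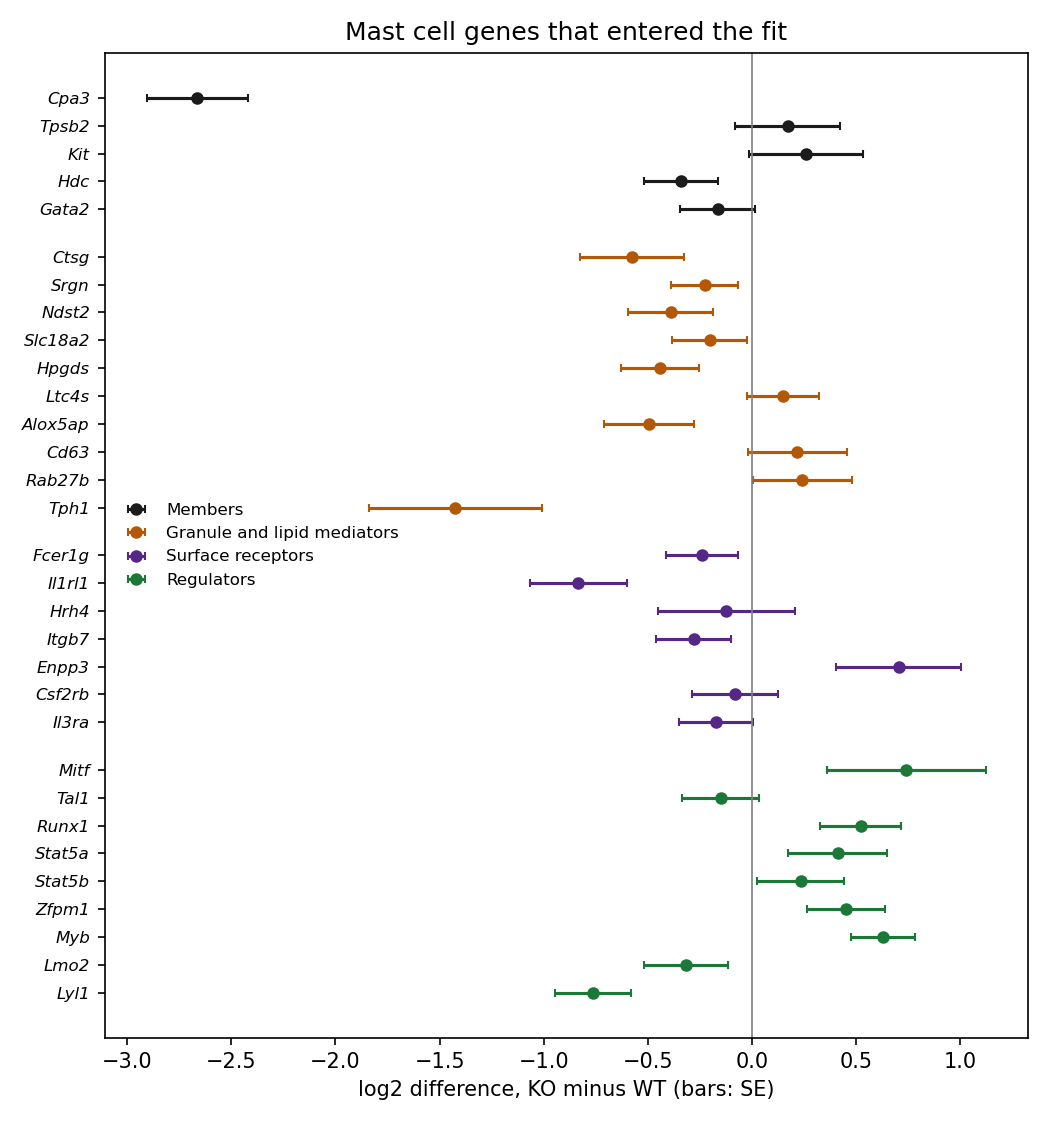
Log2 difference, KO minus WT (horizontal axis, bars: SE), for the 5 listed mast cell genes that entered the fit and for 26 other mast cell genes by list. Cpa3 is drawn at -2.66, but its KO signal is not above background and its nominal bound is 1.75-fold lower. The others lie between -1.42 and 0.74.

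Other cell types were followed beside Cpa3 through their own lists, each level being the sum over the list's probes of the linear signal relative to the 75th percentile. Basophils also store carboxypeptidase A3, and their markers Mcpt8, Cd200r3, Il4 and Il13 passed the background call on no array. Prss34, a basophil protease, passed it on 1 KO array and on all 3 WT arrays and differed by -0.13 (SE 0.24). Il3ra, also on the list of mast cell receptors, passed it on all 6 arrays. It was by far the brightest, so the sum below mainly follows it. The 6 basophil genes other than Cpa3 summed to 0.349, 0.412 and 0.346 on the KO arrays, against 0.379, 0.442 and 0.388 on the WT arrays, so the groups overlapped. Macrophage genes summed to between 5.61 and 5.83 on the KO arrays and between 6.17 and 7.15 on the WT arrays, so the groups did not overlap, with 5 of 7 tested members lower, 2 higher and none called. The brightest gene of this list made up most of each sum. That gene differed by -0.11 (SE 0.17) and overlapped between genotypes. Among all genes tested, 18.2% did not overlap in either direction. Cx3cr1, the fractalkine receptor of resident macrophages, differed by -1.58 (SE 0.21, limma adjusted p 0.0604).

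The summed signal of genes shared by leukocytes also differed, though not every gene went the same way. They summed to between 0.842 and 1.32 on the KO arrays and between 1.46 and 1.59 on the WT arrays, with 4 of 5 tested members lower, 1 higher and none called. Cd52, a surface glycoprotein of leukocytes, differed by -0.98 (SE 0.24, limma adjusted p 0.322). Coro1a, the brightest of the list, differed by -0.75 (SE 0.32, limma adjusted p 0.476). Laptm5 went the other way, by 0.45 (SE 0.22, limma adjusted p 0.505). The part of macrophage or leukocyte content in the Cpa3 difference was not tested. Connective tissue genes, which mark the tissue mast cells live in, summed to between 161 and 268 on the KO arrays and between 165 and 239.9 on the WT arrays, which overlapped. Adrenal and fat tissue can adhere to a dissected kidney: Cyp11a1 and Dbh of the adrenal and Adipoq, Plin1, Ucp1 and Lep of fat did not pass the background call anywhere. Cyp21a1 and Th of the adrenal and Fabp4, which fat shares with endothelium, were detected on all arrays. They differed by -0.09 (SE 0.23), 0.07 (SE 0.24) and 0.01 (SE 0.17). Cyp11b1 of the adrenal was well above background on 1 KO array and on all 3 WT arrays. Its difference was -0.61 (SE 0.34, limma adjusted p 0.533), and the groups overlapped. The part of adrenal tissue in the Cpa3 difference was not tested.

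The 5 named genes most like Cpa3 across the 6 arrays, by Pearson's r of log2 values, were Gpr84 (0.996), Ddx11 (0.993), Armc6 (0.992), Ajuba (0.991) and Sh2b1 (0.990). These points share the arrays, the scaling and the split between genotypes, and the values describe only that split. Gpr84, a receptor for medium-chain fatty acids on myeloid cells, gave -5.84, -5.66 and -5.80 on the KO arrays, against -4.63, -4.82 and -4.51 on the WT arrays. It was well above background on KO replicate 2 and on all WT arrays, and its difference of -1.11 (SE 0.16) had a limma adjusted p of 0.0821.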

How the data were processed

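Kidney RNA of 6 neonates was measured on 1 single-colour Agilent array each, per the labels. The authors deposited scanner output with an intensity per spot, on a linear scale after background subtraction and before any scaling across arrays, per the file headers. The Feature Extraction version is 11.0.1.1 in the headers and 9.1 in the submitters' processing notes.

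Of 44397 spots, controls and outlier flags were left out. Log2 was taken and each array's 75th percentile subtracted. Accessions of 27228 of 39429 probes matched a RefSeq table (GRCm38.p6). The array design is on another build, so only names, chromosomes and promoter sequences came from RefSeq. Probes had to pass the background call on every array of 1 group or both, and each gene was represented by its brightest. The test was limma 3.58.1 (R 4.3.3, two-sided, Benjamini-Hochberg over 21207 genes, threshold 0.05). The fit was tested on simulated data with 200 of 21207 genes changed. It recovered 28.1% of genes changed by a log2 of 1, 79.4% at 2 and 92.4% at 3, with 4.66% false calls. A gene that is not called may therefore still differ, above all by a log2 of 1 or less. With 3 arrays against 3, an exact permutation test of 1 value cannot give a p below 0.1. Normexp was run on median signals. The number of arrays limits precision.

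The members, the gene lists and the naming rule (all members, any gene of the mast cell and signalling lists, up to 4 genes of lowest p in other lists, 5 genes most like Cpa3) were chosen with earlier results of these data known. Alternatives covered scaling, background correction, the filter, probes of a gene, variance model, scan and replicate blocks and left-out arrays.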

Additional observations from a re-analysis of the deposited data

How the results depend on the processing

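The count of genes past the adjusted threshold was 17. It was 19 with quantile normalization, 23 with the array median and 24 with normexp and the 75th percentile. It was 0 with normexp and quantile normalization (chosen after seeing the data, 2208 genes at an unadjusted p under 0.05), 0 with no filter on dim probes (2052), 1 with the stricter filter, 8 with the mean of probes, 62 with the scan block, 45 with an intensity trend and robust variance, and 0 with the KO arrays against WT replicate 3 alone (1847). Leaving out 1 array gave between 0 and 13 calls. The replicate block gave 0 calls (1609 at an unadjusted p under 0.05), but the numbers do not pair the arrays: the deviations of same-numbered arrays correlated at -0.40, 0.48 and -0.60. Cpa3 differed by -2.66, by 0.0671 with normexp and the 75th percentile, by -0.32 with normexp and quantile normalization, by -2.99 against WT replicate 3 alone, and by between -2.90 and -2.50 with 1 array left out. Members lower on the KO arrays numbered 6, and 2 with normexp and the 75th percentile, and between 5 and 7 with 1 array left out. The normexp offset of 50 exceeds the processed Cpa3 intensity on every array. Of 112 values of the other 8 members, 107 stayed within 1 SD, taken as the gene's own SD within genotypes. Some of the 112 could not move. In this balanced design both blocks return the reported difference, as does the mean of probes for a gene with a single probe. The SD is wide for dim genes, and changes of sign of Cma1 and Fcer1a fell within it. No other mast cell gene was called under any of the 17 alternatives. Many of these called 0 or 1 of all genes, so they left little room for such a call. Of 9 members, 5 were dim on some or all arrays, which limits what their values show.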

Other observations

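Of the eosinophil genes, 3 entered the fit, and all 3 were higher on average on the KO arrays. Epx and Ccr3 passed the filter on dim probes only through the KO arrays, so nothing is read from that count. Epx, the eosinophil peroxidase, gave -5.62, -2.61 and -3.83 on the KO arrays, against -6.87, -6.90 and -4.86 on the WT arrays, and was well above background on all 3 KO arrays and on 1 WT array. Its difference of 2.19 (SE 0.83) had a limma adjusted p of 0.453, and the groups overlapped. Ccr3, the eotaxin receptor, differed by 0.69 (SE 0.26, limma adjusted p 0.457). The granule protein genes Prg2 and Prg3 passed the background call on no array, and none of 3 tested eosinophil genes was called.

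Neutrophil granule genes were lower on average on the KO arrays in 7 of 7 cases, beside 46.7% of all genes. Their median was -0.44 and none was called. Of these genes, Ngp passed the filter on dim probes only through the WT arrays. The summed signal of the list overlapped, at between 3.76 and 5.89 on the KO arrays and between 4.92 and 6.02 on the WT arrays. Ltf, which encodes lactoferrin, differed by -0.87 (SE 0.32) and Camp, which encodes cathelicidin, by -0.44 (SE 0.16), with limma adjusted p values of 0.446 and 0.44. Blood progenitor genes were higher in 5 of 6 cases, with a median of 0.20 and none called.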
